A study of Arabidopsis thaliana with 6 samples.

Results

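Nuclear genes of the photosynthetic light reactions are represented here by LHCB4.1, LHCB4.2, LHCB4.3, PSAN, PSBW, PSBY, ATPC1 and CYTC6A, 8 genes taken by name from an Affymetrix expression array of Arabidopsis thaliana. Each of the 8 has 1 probe set that names it and no other gene, out of 13356 genes named alone by a probe set and 22746 probe sets tested. The study compared the aerial part of epiF3 plants (3 arrays) with that of wild type Col-0 plants (3 arrays). All plants had the Col-0 ecotype, were 30 days old and grew at 22 °C in 12 hours of daylight, and RNA was extracted per plant. The epiF3 samples are further described as albino and as msh1 mutants, MSH1 being a MutS homologue targeted to plastids and mitochondria. The labels give no msh1 allele and do not say how the epiF3 line was made or how the names relate. As MSH1 is not analysed here, that gene gives no check of the labels.

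In the light reactions, photosystem II takes electrons from water and passes them through plastoquinone, the cytochrome b6f complex and plastocyanin to photosystem I, which reduces ferredoxin. The proton gradient that builds up across the thylakoid membrane drives the chloroplast ATP synthase. Chlorophyll of the reaction centres is carried by proteins encoded in the plastid, whereas antenna proteins and many small subunits are encoded in the nucleus and imported.

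CYTC6A was higher in epiF3 plants, and it was the 1 gene of the 8 that passed the test. Its signal was 2.45-fold that of wild type (95% interval 1.99 to 3.04). LHCB4.1 was lower on every epiF3 array by a small amount that did not pass. PSAN, PSBW, ATPC1, PSBY, LHCB4.2 and LHCB4.3 had overlapping arrays and changes between -0.18 and 0.064 on the log2 scale. In bulk tissue, fewer cells of a type and less RNA per cell cannot be told apart.

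**Figure D1:**
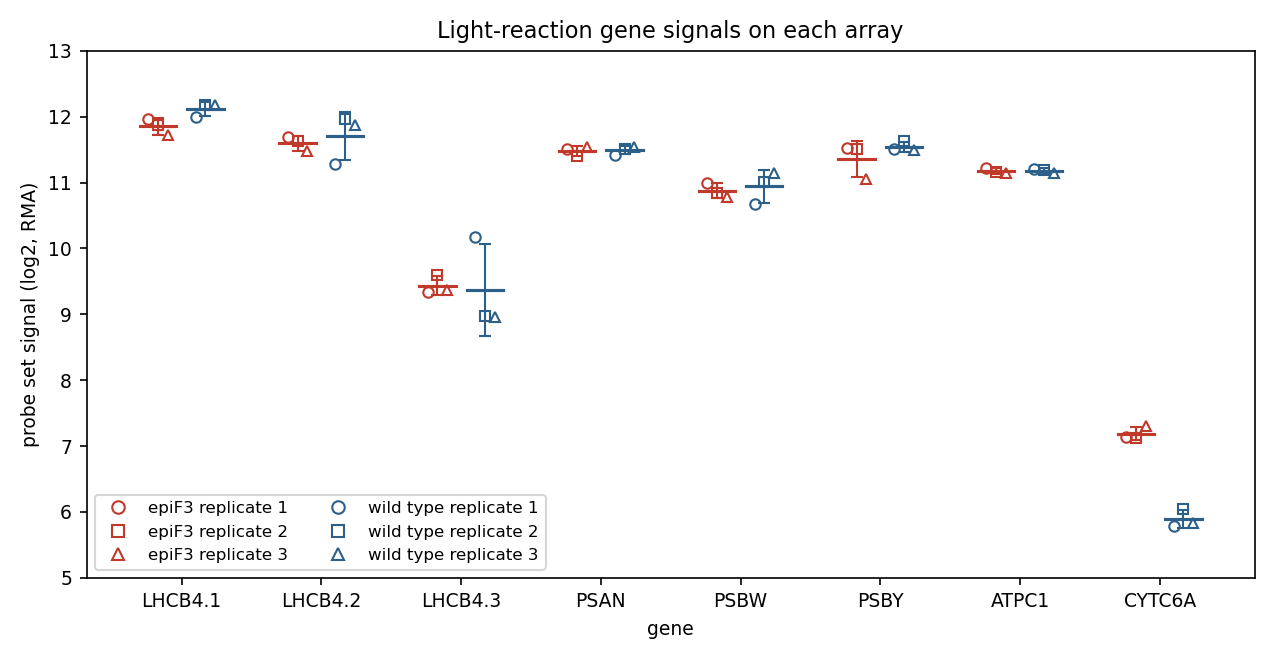
Signal of each gene (log2, RMA) on every array, with epiF3 left of wild type; horizontal lines are means and error bars SDs over 3 arrays. CYTC6A lies between 7.12 and 7.30 on the epiF3 arrays and between 5.78 and 6.05 on the wild-type arrays, while the groups of the other genes lie close together.

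CYTC6A (AT5G45040, TAIR10.1 chromosome 5, 18175371 to 18176888) encodes cytochrome c6A, a haem protein of the thylakoid lumen whose role is not settled. Its log2 signal was 7.14, 7.12 and 7.30 on epiF3 arrays, against 5.78, 6.05 and 5.84 on wild-type arrays. The lowest epiF3 array stood above the highest wild-type array, and each group was tight. Of all probe sets, 16.9% had groups whose arrays did not overlap, 9.75% with epiF3 higher and 7.11% with epiF3 lower. Its mean level was 7.19 ± 0.10 over the epiF3 arrays, against 5.89 ± 0.14 over those of wild type (SD, n = 3 each). The limma change was 1.296 with a standard error of 0.13, and its p adjusted across the 22746 probe sets was 0.00822. By p it stood at place 32 of these, and by size of the rise at place 106.

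Of all probe sets tested, 0.598% passed the same threshold, 0.268% with a higher and 0.33% with a lower signal in epiF3. Of the 8 genes, 1 was called higher and 0 lower, and none of the other 7 had an unadjusted limma p under 0.05, which 10.9% of all probe sets had. The median change of the 8 was -0.036, against 0.030 over all probe sets tested (-0.023 without the dimmest 40% of these). Without CYTC6A the median of the members was -0.065. These medians rest on single arrays, since without wild type replicate 1 they were -0.12 with CYTC6A and -0.20 without it. With any other array left out, the median of the 8 was -0.079 to -0.018. Among the 1000 probe sets closest to CYTC6A in mean signal, 99.2% had a lower change, and 2 were called higher.

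**Figure D2:**
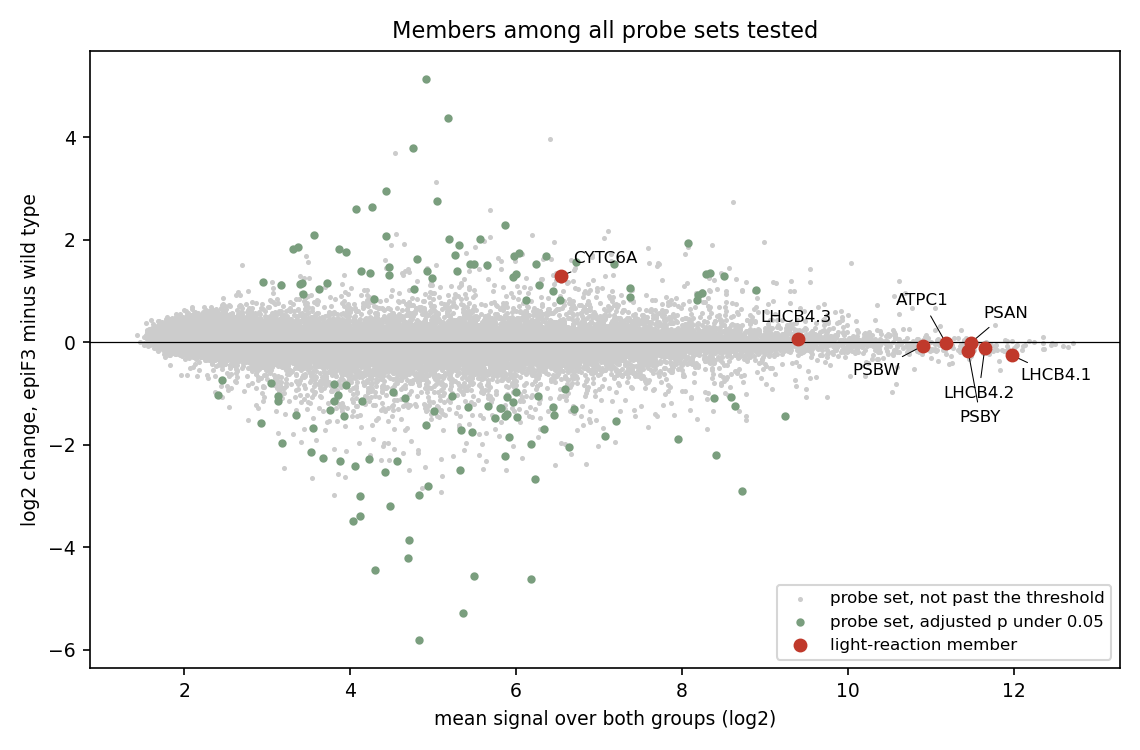
Mean signal over both groups (log2, horizontal) against log2 change, epiF3 minus wild type (vertical), for every probe set tested. CYTC6A is at a change of 1.296 in the middle of the signal range, and the 7 other genes lie near 0 at the bright end.

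The position of CYTC6A within each array gives the same comparison on a scale that ignores any order-keeping rescaling of an array. It ranked 3056th, 3145th and 2662nd of the 22746 probe sets on epiF3 arrays, against 6775th, 6010th and 6623rd on wild-type arrays. It thus outranked 86.2% to 88.3% of probe sets in epiF3 and 70.2% to 73.6% in wild type. The difference of 15.5 percentile points had a two-sided exact permutation p of 0.1, the smallest that 3 against 3 arrays allow (0.8 adjusted over the 8 genes).

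The size of the CYTC6A change was similar under every setting tried, between 1.22 and 1.38, but its call was not. The call held under 14 of 17 alternatives. It was lost with no moderation of the variance (adjusted p = 0.175 in limma), when the hybridization control level entered as a covariate (0.106) and without epiF3 replicate 2 (0.06).

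**Figure D3:**
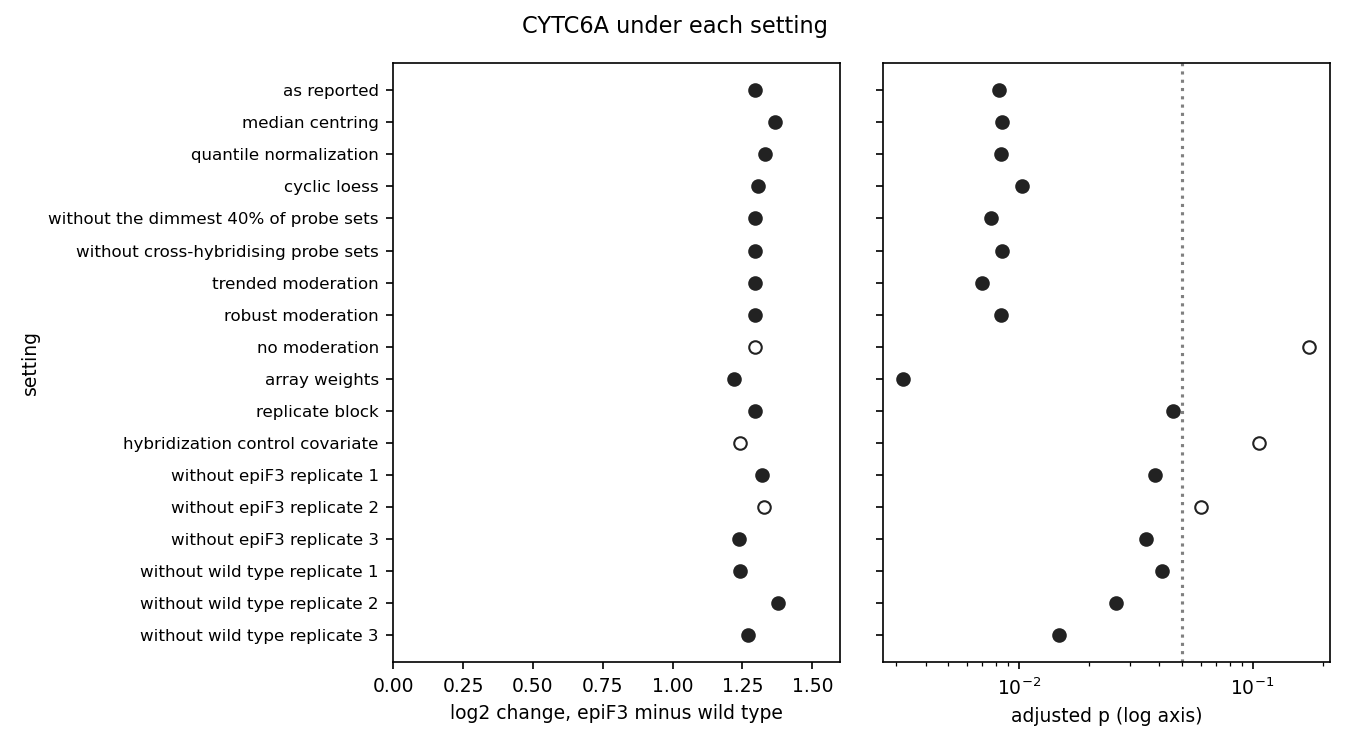
Log2 change of CYTC6A (left, epiF3 minus wild type) and its limma adjusted p (right, log axis, dotted line at 0.05) under each setting; filled points passed the threshold. The changes stay between 1.22 and 1.38, and the 3 open points are the settings in which the call was lost.

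Hybridization controls, spiked transcripts of bacteria and phage, were at 8.19, 8.36 and 10.5 on epiF3 arrays, against 7.53, 7.11 and 8.21 on wild-type arrays (mean log2 of 18 probe sets). The third epiF3 array thus stood apart. CYTC6A had its highest value there (7.30) and was at 7.14 and 7.12 on the other epiF3 arrays, and its change without the third was 1.24 (adjusted p = 0.0352 in limma). With the control level as a covariate, LHCB4.1 had a change of -0.16 and PSBY one of 0.090, while the median of the 8 was 0.0092.

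LHCB4.1, LHCB4.2 and LHCB4.3 encode CP29, a minor antenna protein that sits between the photosystem II core and the main light-harvesting trimers. LHCB4.1 (AT5G01530, chromosome 5, 208866 to 210548) had log2 signals of 11.97, 11.87 and 11.72 in epiF3, against 11.99, 12.17 and 12.17 in wild type. The groups were separate by a margin of 0.022, between the highest epiF3 array and the lowest wild-type array. The same separation with epiF3 lower was found in 7.11% of all probe sets. The change was -0.26 (95% interval -0.56 to 0.043, limma adjusted p = 0.542). It was -0.32 to -0.19 with 1 array left out, -0.19 after median centring, -0.14 after quantile normalization and -0.16 with the hybridization control covariate.

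LHCB4.2 (AT3G08940, chromosome 3, 2717557 to 2718923) was at 11.69, 11.63 and 11.47 in epiF3, against 11.29, 11.96 and 11.87 in wild type. All epiF3 arrays lay inside the range of the wild-type arrays, of which replicate 1 was the lowest of all. The change was -0.11 (95% interval -0.56 to 0.34), or -0.32 without wild type replicate 1. It was 0.0090 after quantile normalization, so it had no settled sign.

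LHCB4.3 (AT2G40100, chromosome 2, 16745628 to 16747424), the member of the trio known to diverge most in sequence, varied most of the 8 within a group. Its signals were 9.34, 9.60 and 9.37 in epiF3, against 10.17, 8.98 and 8.96 in wild type. Wild type replicate 1 was above and the other wild-type arrays below every epiF3 array. The residual SD over both groups was 0.50, larger than in 97.3% of the 1000 probe sets of most similar level. The change was 0.064 (95% interval -0.66 to 0.79) with all arrays. Without wild type replicate 1 it was 0.47 (adjusted p = 0.324 in limma), and without wild type replicate 2 or 3 it was -0.13 or -0.14.

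**Figure D4:**
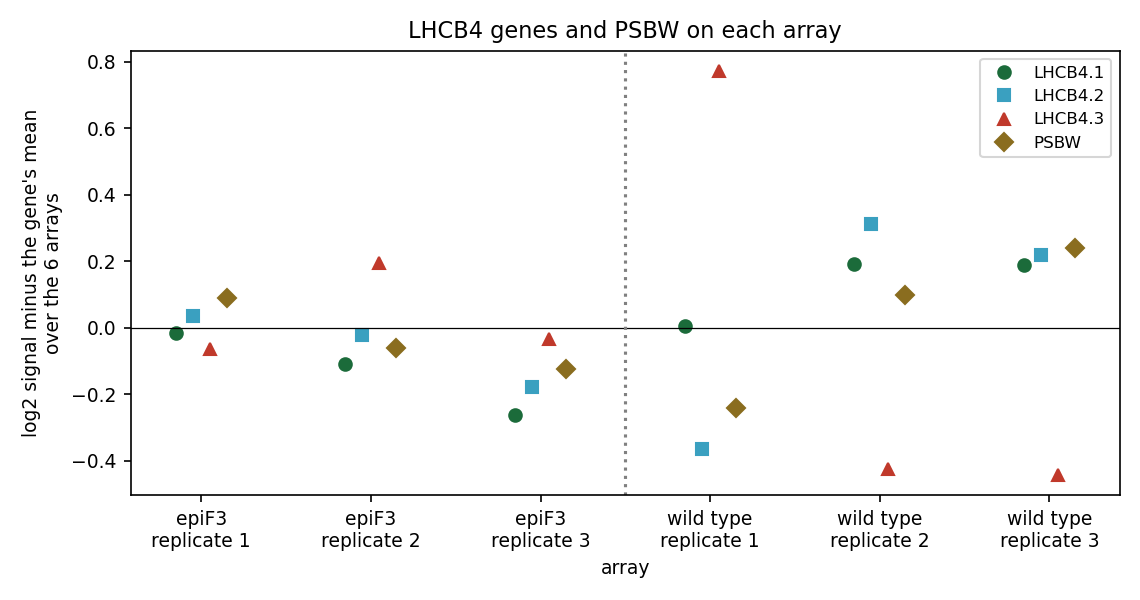
Log2 signal of LHCB4.1, LHCB4.2, LHCB4.3 and PSBW on each array, minus the gene's mean over the 6 arrays. On wild type replicate 1 LHCB4.3 is 0.77 above its mean, LHCB4.2 is 0.36 below and PSBW is 0.24 below.

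Differences between the LHCB4 genes within an array showed the same array standing apart. LHCB4.3 minus LHCB4.2 was -2.35, -2.03 and -2.10 in epiF3, against -1.11, -2.99 and -2.91 in wild type. LHCB4.3 minus LHCB4.1 was -2.63, -2.28 and -2.35 in epiF3, against -1.82, -3.20 and -3.21 in wild type. In both pairs the epiF3 arrays lay between the first wild-type array and the other two. LHCB4.1 minus LHCB4.2 was 0.28, 0.24 and 0.25 in epiF3, against 0.70, 0.21 and 0.30 in wild type. Over 3 pairs the two-sided exact permutation p was 0.4 to 1 (adjusted 0.9 to 1, with 0.1 the smallest possible before adjustment), so unequal change of the LHCB4 genes between groups was not shown.

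Measures of the whole array set wild type replicate 1 apart in part. Signal of actin was 0.98 log2 units higher at the 3′ than at the 5′ end on that array, against 1.66, 1.38 and 1.66 on epiF3 arrays and 1.97 and 2.02 on the other wild-type arrays. The same 3′ minus 5′ difference was lowest there for GAPDH and ubiquitin too, by smaller margins. It was -0.12 for GAPDH, against -0.010 to 0.21 on the other arrays, and -0.27 for ubiquitin, against -0.12 to 0.14. Of 32 plastid-encoded genes of the light reactions, 20 had their lowest wild-type value on it and 7 their highest. Wild type replicate 2 was uneven the other way, with 5 lowest and 20 highest, so this count does not single out replicate 1. Over all probe sets, moreover, wild type replicate 1 correlated with the other wild-type arrays at 0.989 and 0.984, against 0.981 between those. The part of RNA quality of wild type replicate 1 in the LHCB4 values was not tested.

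PSBW (AT2G30570, chromosome 2, 13019028 to 13020311) and PSBY (AT1G67740, chromosome 1, 25394031 to 25395249) encode small membrane-spanning subunits of photosystem II. PSBW was at 11.00, 10.85 and 10.78 in epiF3, against 10.67, 11.01 and 11.15 in wild type. Here again all epiF3 arrays lay within the wild-type range, with wild type replicate 1 lowest. The change was -0.065 (95% interval -0.43 to 0.30), or -0.20 without wild type replicate 1. It was 0.0068 after median centring and 0.040 without wild type replicate 3.

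PSBY was at 11.52, 11.51 and 11.05 in epiF3, against 11.50, 11.63 and 11.49 in wild type. Its low mean in epiF3 came from replicate 3, the array with the brightest hybridization controls. The median over all probe sets was also lowest on that array, at 4.08 against 4.25 to 4.32 on the others. The change of -0.18 (95% interval -0.55 to 0.19) was -0.025 without that array, -0.11 after median centring and 0.090 with the hybridization control covariate.

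PSAN (AT5G64040, chromosome 5, 25628521 to 25629708) encodes a lumenal subunit of photosystem I near the docking site of plastocyanin. It was at 11.51, 11.40 and 11.54 in epiF3, against 11.42, 11.51 and 11.54 in wild type. The arrays of the groups were interleaved over a range of 0.14. The change was -0.0062 (95% interval -0.28 to 0.27), with a positive sign after median centring (0.065) and quantile normalization (0.090).

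ATPC1 (AT4G04640, chromosome 4, 2350498 to 2352025) encodes the gamma subunit of the chloroplast ATP synthase, which carries the thiol switch that turns the enzyme off in the dark. It was at 11.22, 11.16 and 11.14 in epiF3, against 11.21, 11.19 and 11.14 in wild type. All 6 arrays lay within 0.083, and 0.7% of the 1000 probe sets nearest in level had a smaller residual SD (0.039 for ATPC1). The change was -0.0075 (95% interval -0.27 to 0.26), which in fold terms leaves 0.83 to 1.19. Its sign was positive after median centring (0.064) and quantile normalization (0.062).

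**Figure D5:**
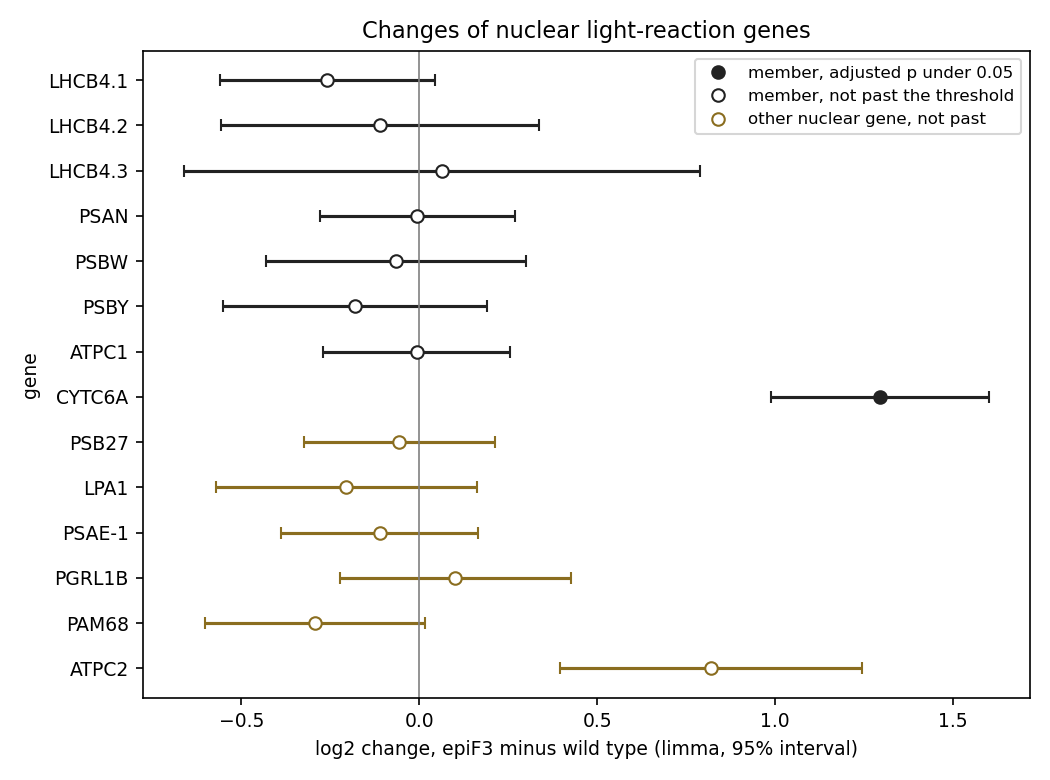
Log2 change, epiF3 minus wild type, with its 95% limma interval, for the 8 genes and for 6 other nuclear genes of the light reactions. CYTC6A alone has a filled point, for an adjusted p of 0.00822, and the intervals of the 7 other members include 0.

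Although the epiF3 samples are described as albino, 6 of the 8 genes were among the brightest probe sets in both groups. LHCB4.1 ranked 20th, 31st and 26th on epiF3 arrays, against 27th, 12th and 17th on wild-type arrays. LHCB4.2 ranked 41st to 47th in epiF3 and 26th to 83rd in wild type. PSAN ranked 42nd to 68th in epiF3 and 57th to 72nd in wild type, and PSBY 51st to 88th in epiF3 and 49th to 64th in wild type. ATPC1 ranked 79th to 92nd in epiF3 and 84th to 94th in wild type, and PSBW 104th to 129th in epiF3 and 91st to 170th in wild type. LHCB4.3 ranked lower, at 478th to 578th in epiF3 and 294th to 791st in wild type. Ranks of all 7 among all probe sets overlapped between groups (exact permutation p of 0.3 to 1 for the mean percentile). Ranked among the 13513 probe sets that name 1 gene, ATPC1 was 0.032 percentile points higher in epiF3 with an exact permutation p of 0.1, the smallest possible. Probe sets differ in brightness per transcript, so these ranks do not order the transcripts of different genes.

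The brightest probe set read 12.8, 12.8 and 12.5 on the epiF3 arrays, against 12.9, 12.7 and 12.8 on the wild-type arrays. LHCB4.1 lay 0.53 to 0.93 log2 units under it, close to the top of the scale. Whether signals there understate a change was not tested.

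Of the other nuclear genes of the light reactions, 6 were measured under a name, and limma called 0 of them (1 at an unadjusted p under 0.05, against 10.9% of all probe sets). Their median change was -0.084, with 2 positive and 4 negative, where 55.7% of all probe sets were positive. The median over all probe sets was 0.030, or -0.023 without the dimmest 40%, so the 55.7% rests in part on dim probe sets. ATPC2, a second gene for the ATP synthase gamma subunit, had the largest positive change. It was at 4.97, 4.43 and 4.43 in epiF3, against 3.95, 3.81 and 3.62 in wild type, without overlap. The change was 0.82 (95% interval 0.40 to 1.24, limma adjusted p = 0.123).

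PAM68, a thylakoid protein needed for photosystem II assembly, had the most negative change of the 6. It was at 6.20, 6.31 and 6.18 in epiF3, against 6.38, 6.49 and 6.70 in wild type, also without overlap (change -0.29, limma adjusted p = 0.49). Of all probe sets, 9.75% had no overlap with epiF3 higher, as for ATPC2, and 7.11% with epiF3 lower, as for PAM68. LPA1, another assembly factor of photosystem II, had a change of -0.21, and PSAE-1, a stromal subunit of photosystem I, one of -0.11. PSB27, a lumenal protein of photosystem II repair, had one of -0.057, and PGRL1B, a protein of cyclic electron flow, one of 0.10.

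All 32 plastid-encoded genes of photosystems, cytochrome b6f and ATP synthase on the list were measured. limma called 0 of them, against 0.598% of all probe sets, and 6 (18.8%) had an unadjusted p under 0.05, against 10.9%. The 6 include psbD and psbC, whose positions overlap (32711 to 33772 and 33720 to 35141), and the neighbours psbK and psbI. They may thus not be 6 separate measures. Changes of the 32 genes were positive in 10 (31.2%) and negative in 22, against 55.7% positive over all probe sets, with a median of -0.15. That median was -0.22 without wild type replicate 1, -0.072 without epiF3 replicate 3, -0.084 without wild type replicate 2 and 0.020 with the hybridization control covariate. Without the dimmest 40% of probe sets it was -0.13 for the 29 plastid genes left, against -0.023 over all probe sets left. The 55.7% positive thus rests in part on dim probe sets. The changes ran from -1.68 for atpA, the alpha subunit of ATP synthase, to 0.83 for psbD, the D2 reaction centre protein of photosystem II. The atpA values were 6.96, 6.65 and 5.01 in epiF3, against 7.23, 8.43 and 7.999 in wild type. The values of psbD were 7.92, 7.91 and 8.31 in epiF3, against 6.77, 7.49 and 7.40 in wild type.

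Likeness of pattern was measured as the root mean square difference of log2 values over the 6 arrays, each probe set centred on its own mean, against 13512 other probe sets that name 1 gene. The 3 most like CYTC6A were AT5G45840 (0.10), AT5G58575 (0.14) and AT5G38130 (0.16), all of chromosome 5. In the order of measured genes they lie at places 38, 691 and -346 from CYTC6A. Their changes were 1.11, 1.39 and 1.17, each called higher by limma. As they were picked for matching CYTC6A on these same arrays, those calls are no separate result. For LHCB4.1 the nearest were AT1G07970 (0.020), AT1G33080 (0.037) and CHLM (0.037), the last a methyltransferase of chlorophyll synthesis. Within 0.1 of LHCB4.1 lay 287 probe sets, so its nearest genes are a few of many with a similar pattern. CHLM was at 9.97, 9.88 and 9.72 in epiF3, against 9.96, 10.13 and 10.07 in wild type.

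The probe sets most like LHCB4.2 were AT3G45630, AT5G13950 and SEC6 (0.025 to 0.047). Those most like LHCB4.3 were AT3G26510, TRY and AT5G62140 (0.10 to 0.11), and all had their highest value on wild type replicate 1. TRY, a repressor of trichome fate, was at 4.70, 5.15 and 4.62 in epiF3, against 5.62, 4.46 and 4.31 in wild type. PSBW was closest to AT3G32270 (0.011), and PSBY to AT5G38380 (0.019), which was likewise lowest on epiF3 replicate 3. Within 0.1 lay 245 probe sets for PSBW and 268 for PSBY, against 33 for LHCB4.2 and 2 for LHCB4.3. PSAN and ATPC1 were so flat that 1373 and 1416 probe sets lay within 0.1 of them, and their nearest, AT4G29570 and AT1G05350, mark no particular pattern.

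Among the 8 genes, PSAN and ATPC1 were the most alike (0.072), followed by LHCB4.2 and PSBW (0.11) and by LHCB4.1 and PSBY (0.12). LHCB4.1 and LHCB4.2 differed by 0.17, whereas LHCB4.2 and LHCB4.3 differed by 0.63. CYTC6A was 0.66 or more from every other member.

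The 8 genes lie on all 5 nuclear chromosomes, with LHCB4.1, PSAN and CYTC6A on chromosome 5. Of the 48 measured genes within 3 places of a member in the order of TAIR10.1, limma called 0. As it called 0.598% of all probe sets, a count of 0 among so few does not set these neighbours apart. An unadjusted p under 0.05 was found for 7 of the 48, against 10.9% of all probe sets. The closest to a call was AT5G45020, the measured gene just before CYTC6A, at 3.18 in epiF3 and 4.12 in wild type on average (change -0.94, limma adjusted p = 0.0659). It thus differed in the direction opposite to CYTC6A. Within 100 measured genes to each side of CYTC6A, 4 of 200 others were called, AT5G45840 higher and AT5G43310, AT5G44020 and AT5G44580 lower. On chromosome 5, 16 of 2982 measured genes were called, which include CYTC6A and these 4. Over all measured genes with a position the share was 0.527%. The window of 100 genes was chosen after values were seen. TAAC, an ATP carrier of the thylakoid membrane and the measured gene just before LHCB4.1, had a change of 0.46 (limma adjusted p = 0.283).

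The labelled tissue was checked against marker genes, of which few were measured under a name. RCA, the activase of Rubisco, outranked at least 99.987% of probe sets on every array, and PRK of the Calvin cycle outranked at least 99.4%. These were 2 of 9 markers of green tissue. PYK10 and EXPA7 of roots averaged 4.17 and 2.52 in epiF3 and 4.16 and 2.29 in wild type, and AMS of anthers averaged 2.33 in epiF3 and 2.23 in wild type. FMA of guard cells averaged 4.73 in epiF3 and 4.95 in wild type. Over all arrays PYK10 outranked 44.7% to 53.8% of probe sets and EXPA7 19.8% to 30.3%. AMS outranked 17.4% to 22.6% and FMA 50.5% to 59.9%, so PYK10 of roots stood mid-array. None of these 6 passed the limma threshold or had an unadjusted p under 0.05, which 0.598% and 10.9% of all probe sets did.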

How the data were processed

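Per the submitters' processing notes, the authors made the deposited log2 values with RMA and affy, whose versions are not stated, as 1 value for each probe set on each array. That they are log2 was read from their range. How background was treated and which build defined the probe sets is not given in the sources used here. Of 22810 probe sets, 64 array controls were left out of tests. The platform annotation names 1 gene for 13513 probe sets, several for 503 and none here for 8730. RefSeq TAIR10.1 gave positions and gene order.

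All 22746 remaining probe sets entered 1 limma fit (3.58.1, R 4.3.3, lmFit and eBayes) of epiF3 minus wild type, two-sided and unblocked, with Benjamini-Hochberg adjustment and a threshold of 0.05. Ranks, exact permutation tests and likeness were computed in Python 3.11.15 with scipy 1.17.1. The fit was also run on simulated arrays with independent noise and planted changes larger than that of CYTC6A. That run does not check the calls made here. Members and lists were chosen with earlier results of these data known. All 8 members were named whatever their change, with all measured nuclear pathway genes, the extremes of the plastid list and 3 most like genes per member. Other genes (chromosome neighbours and called genes near CYTC6A) were named after their values were seen. Alternatives covered scaling, filters, moderation, array weights, a replicate block, a hybridization control covariate and leaving out each array. Titles call the samples biological replicates. The number of arrays limits the precision.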

Additional observations from a re-analysis of the deposited data

Results flagged for a closer look

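Hybridization controls, which measure no plant gene and entered only as a covariate in 1 alternative fit, averaged 10.5 log2 units on epiF3 replicate 3, above the highest wild-type array (8.21). LHCB4.1, PSBY and ATPC1 had their lowest value of the 6 arrays there, and PSAN and CYTC6A their highest. The median over all probe sets was also lowest on that array (4.08, against 4.25 to 4.32 on the others). Array weights gave it the lowest weight (0.30), with changes of -0.22 for LHCB4.1, -0.086 for PSBY and 1.22 for CYTC6A.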

How the results depend on the processing

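Against 136 probe sets past the threshold, limma called 33 at an adjusted p under 0.01, 2 with no moderation, 449 with array weights, 24 with the hybridization control covariate and 74 with the replicate block. It called 83, 33 and 62 without epiF3 replicate 1, 2 or 3, and 64, 54 and 402 without wild type replicate 1, 2 or 3. CYTC6A lost its call with no moderation (1.296) and with the covariate (1.24), and its change was 1.24 to 1.38 with 1 array left out, where the call was lost without epiF3 replicate 2 (1.33). Without moderation the spread rests on each probe set's own 6 values, the covariate partly overlaps with the group, and other causes were not tested. Same-numbered arrays deviated from their group means with correlations of -0.077, -0.042 and -0.045 over probe sets, and no array correlated best with its own number, so the numbers were not taken as pairs. The block changed no call of a member (CYTC6A adjusted p = 0.0459 in limma). The median of the 8 genes was 0.035 after median centring and 0.036 after quantile normalization, where that of all probe sets was 0.10 and 0.012. With 1 array left out, that of the 8 genes was -0.12 to -0.018. The pathway median was 0.0063 after quantile normalization, and the plastid median 0.020 with the covariate. Among genes not called, signs turned for PSAN (0.065), PSBW (0.0068) and ATPC1 (0.064) after median centring, for LHCB4.2 (0.0090), PSAN (0.090) and ATPC1 (0.062) after quantile normalization, and for PSBY (0.090) and ATPC1 (0.031) with the covariate. With 1 array left out, changes ran from -0.32 to 0.017 for LHCB4.2, -0.14 to 0.47 for LHCB4.3, -0.041 to 0.035 for PSAN, -0.20 to 0.040 for PSBW and -0.032 to 0.0095 for ATPC1. Left out likewise, which was chosen after seeing the data, differences in mean percentile ran from -0.055 to 0.070 for LHCB4.2, -0.045 to 1.05 for LHCB4.3, -0.097 to 0.076 for PSBW and -0.064 to 0.017 for PSBY, and LHCB4.3 minus LHCB4.2 from -0.15 to 0.79. Ranks among probe sets that name 1 gene turned no sign. All members have 1 probe set, so the planned comparison of probe sets of a gene gave no value.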
